A study of Mus musculus with 6 samples.

Results

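The wild-type epithelial cells of the mouse embryonic pancreas at embryonic day 10.5 (E10.5) were divided by whether their library captured Ptf1a RNA. Of the 1104 cell barcodes of the wild-type single-cell RNA library, 159 passed an epithelial gate. The gate required at least 2000 detected genes, at least 3 UMIs (unique molecular identifiers, 1 per captured RNA molecule) summed over the epithelial genes Epcam, Cdh1, Krt8 and Krt18, more of these than UMIs of the mesenchymal genes Col1a1, Col1a2, Col3a1 and Pdgfra, and fewer than 3 UMIs of the endocrine granule genes Chga and Chgb. Of the 159 cells, 74 held 1 or more Ptf1a UMIs (Ptf1a-detected) and 85 held 0 (undetected). The groups were therefore chosen on the same counts that are described here, so the differences between them are descriptions and carry no test.

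The study compared Ptf1a+/+ embryos with embryos homozygous for a deletion of a Ptf1a enhancer (Ptf1aenh-delta/enh-delta), both C57BL/6, by single-cell RNA sequencing and by single-cell assays of open chromatin. Only the RNA libraries at E10.5, made from dissected multipotent pancreatic progenitor tissue with the droplet-based 10x Chromium 3' kit, are used here. Each genotype had 1 RNA library, built from tissue of 5 to 9 pooled embryos, so no value has a replicate error. The 95% intervals given in parentheses cover counting error only. Of the 815 barcodes of the enhancer-deleted library, 116 passed the same gate. The RNA libraries shared 1 barcode sequence, and 0 inside both gates.

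Ptf1a encodes a basic helix-loop-helix transcription factor that binds DNA together with an E protein and RBPJ, or with the RBPJ relative RBPJL in exocrine cells. The gene is needed for the foregut endoderm to take up a pancreatic fate, marks the multipotent progenitors of the early bud with Pdx1, Nkx6-1 and Sox9, and later drives the digestive enzyme genes of acinar cells. The endoderm next to the ventral bud forms the bile ducts and liver, for which Sox17 and Hhex are early regulators. Ptf1a lies on chromosome 2, positions 19445663 to 19447501 (GRCm38.p6), in the RefSeq annotation.

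The site bound by the Ptf1a complex joins an E-box, CANNTG, to an RBPJ core, TGGGAA or its complement TTCCCA. These letters were searched on both strands in the 250 bases before the annotated start of each gene (RefSeq, GRCm38.p6). The stretch of Cpa1, an early acinar enzyme gene, is shown because both motifs lie close together in it, and that of Nkx6-1 because it has neither although the gene is among those with the highest ratios below. Capitals mark the motifs. The Cpa1 stretch is chr6:30638968-30639217 on the plus strand and the Nkx6-1 stretch is chr5:101664712-101664961 on the minus strand.
Cpa1: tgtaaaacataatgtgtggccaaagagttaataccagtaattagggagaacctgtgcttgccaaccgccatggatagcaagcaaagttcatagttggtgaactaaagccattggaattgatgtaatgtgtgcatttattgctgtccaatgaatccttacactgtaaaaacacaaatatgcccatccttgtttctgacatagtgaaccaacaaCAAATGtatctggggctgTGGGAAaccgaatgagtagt
Nkx6-1: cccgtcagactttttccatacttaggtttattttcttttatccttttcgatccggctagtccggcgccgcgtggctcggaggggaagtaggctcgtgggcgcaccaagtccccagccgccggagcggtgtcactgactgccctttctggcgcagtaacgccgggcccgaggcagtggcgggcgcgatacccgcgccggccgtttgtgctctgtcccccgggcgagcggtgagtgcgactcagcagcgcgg
In Cpa1 the gap between the motifs was 12 bases. Of the 15 genes with the highest ratio named below, 13 had a stretch in the table. An E-box was present in 6 of the 13 (46.2%), against 69.3% of 27025 genes, and an RBPJ core in 4 of the 13 (30.8%), against 24.1%. A pair of both within 30 bases was present in 0 of the 13, against 6.58% of all genes. A match is a stretch of letters and not evidence of binding.

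Detection of Ptf1a rose with the total UMIs captured per cell (depth). The 74 detected cells held 126 Ptf1a UMIs: 43 cells had 1, 17 had 2, 9 had 3, 3 had 4 and 2 had 5. Their total UMIs ranged from 5725 to 28036 with a median of 14473, and those of the undetected cells from 4606 to 27854 with a median of 10895. When the 159 cells were cut into 3 bins of equal size by total UMIs, Ptf1a was detected in 15 of 53 of the shallowest (28.3%, 16.8 to 42.3, exact binomial), 26 of 53 of the middle (49.1%, 35.1 to 63.2) and 33 of 53 of the deepest (62.3%, 47.9 to 75.2). A cell without a Ptf1a UMI was thus not a cell shown to lack Ptf1a RNA, and the undetected group can hold cells that expressed it.

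**Figure D1:**
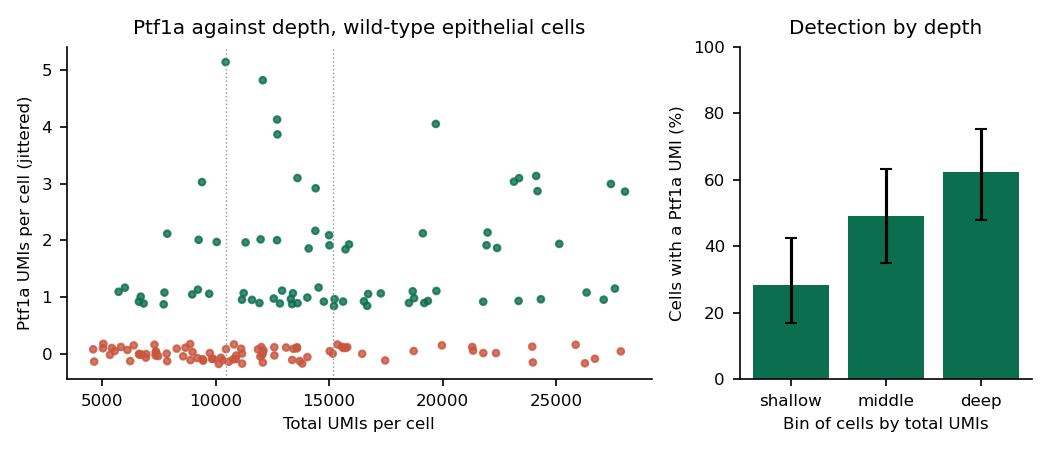
Left, Ptf1a UMIs per cell (vertical axis, jittered) against total UMIs per cell for the 159 wild-type epithelial cells, with Ptf1a-detected cells in green, undetected cells in red and dotted lines at the limits of the 3 depth bins. Right, percentage of cells with a Ptf1a UMI in each bin with 95% exact binomial intervals, which goes from 28.3% in the shallowest to 62.3% in the deepest.

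Cells of the other gates in the same library held 0 Ptf1a UMIs. Ptf1a was detected in 0 of 79 wild-type cells with 3 or more Chga and Chgb UMIs (median depth 13617), which allows a share of up to 3.80%, and in 0 of 14 cells of the mesenchymal gate (median depth 6796), which allows up to 21.4%. In the epithelial cells the share was 46.5% (38.6 to 54.6; median depth 12706). Thinned to 6500 UMIs per cell, it was 30.1% (44 of 146 cells, 22.8 to 38.3), with 13 shallower cells left out. In the enhancer-deleted epithelial cells it was 0 of 116 (median depth 14174), which allows up to 2.59%. These shares count cells with a captured molecule, not cells that express the gene.

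The limits of the gate had cells with Ptf1a on either side only for the number of genes. Among cells that met the other conditions with at least 1000 but fewer than 2000 genes, 14 of 64 held a Ptf1a UMI, and just inside the limit, with fewer than 3000 genes, 5 of 28 did. Below the epithelial limit, with 1 or 2 epithelial UMIs, 0 of 4 cells held one, and inside it, with 3 to 5, 2 of 12 did. Above the endocrine limit, with 3 to 5 Chga and Chgb UMIs, 0 of 9 did, and inside it, with 1 or 2, 8 of 20 did.

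The gate selected on epithelial and mesenchymal genes, so their levels describe the cells and do not check the label. The median of the summed epithelial UMIs was 21 in the detected cells (4 to 65) and 17 in the undetected cells (3 to 78), and that of the mesenchymal sum was 0 in both. Epcam stood at 637 and 643 CPM (UMIs scaled to a common library total) and Krt8 at 444 and 434. Cldn6, a tight junction gene that the gate did not use, was at 203 and 240 CPM. Pdx1, which marks pancreatic and duodenal endoderm, was detected in 67 of 74 Ptf1a-detected cells (90.5%) and in 48 of 85 undetected cells (56.5%). Endothelial, blood and neural crest markers together had 44 UMIs in the detected and 55 in the undetected cells over 16 genes, and Ptprc, the pan-leukocyte marker, had 0 in both.

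To compare the groups at like depth, CPM was computed within each depth bin and the 3 values were averaged with equal weight. All levels below are these depth-matched CPM, and all ratios are log2 of the detected over the undetected level after adding 10 CPM, which understates the ratio of low genes. Over the 5714 genes with at least 50 UMIs in the 159 cells, the median log2 ratio was 0.01 and the middle 50% lay between -0.16 and 0.19. At least 2-fold higher levels in the Ptf1a-detected cells were found for 12 genes, 0.21% of those measured, and at least 2-fold lower levels for 24 genes, 0.42%. The 12 were higher in each of the depth bins and 22 of the 24 were lower in each, but these bins are the values that the ratio averages.

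**Figure D2:**
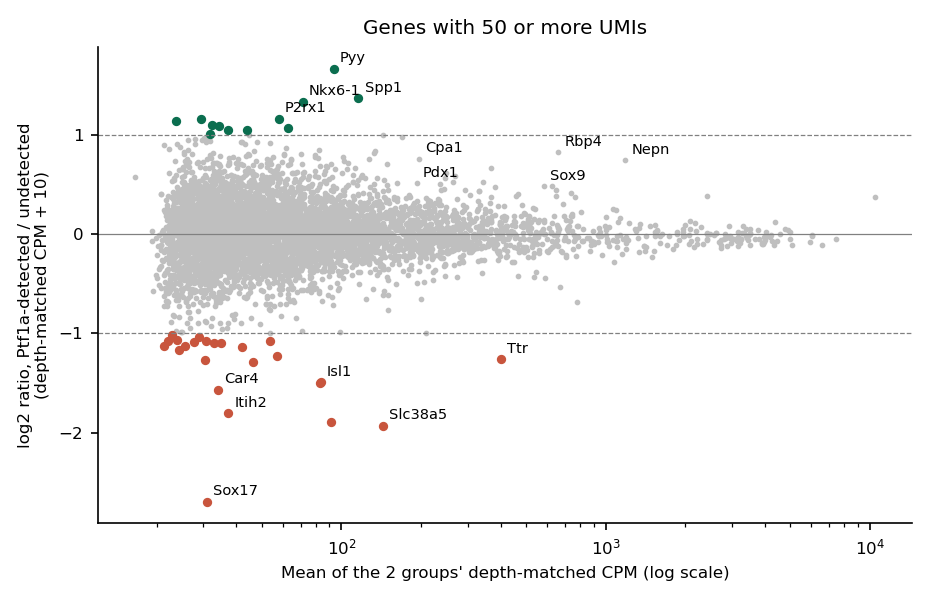
Log2 ratio of the depth-matched level in Ptf1a-detected over undetected cells (vertical axis) against the mean of both levels in CPM (horizontal axis, log scale), 1 point per gene with at least 50 UMIs. Dashed lines mark 2-fold, with 12 genes above the upper line in green and 24 below the lower line in red, and most genes lie close to 0.

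The transcription factors of pancreatic progenitors were on the whole higher where Ptf1a was detected. Of 15 such genes, 13 reached 50 UMIs. Their median log2 ratio was 0.39, against 0.01 over all genes, 1 was 2-fold higher and 0 were 2-fold lower. In each depth bin 7 were higher, where 27.3% of all genes had 1 direction, higher or lower, in all bins.

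Nkx6-1, a homeobox factor of multipotent progenitors and later of duct precursors and beta cells, had the highest ratio of these. Its UMIs per cell ranged from 0 to 6 with a median of 1 in the detected cells, from 0 to 3 with a median of 0 in the undetected cells and from 0 to 5 with a median of 0 in the enhancer-deleted cells, so the groups overlapped cell by cell. Its level was 106 CPM (81.4 to 138) in the detected and 36.2 CPM (25.5 to 50.2) in the undetected cells, a log2 ratio of 1.33. In the depth bins, from shallow to deep, it stood at 155, 90.8 and 72.4 CPM against 34.8, 27.2 and 46.6. After thinning, 38.9% of detected and 16.2% of undetected cells held an Nkx6-1 UMI.

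Its relative Nkx6-2 was at 228 CPM against 111 CPM (log2 ratio 0.98). Hes1, a repressor induced by Notch signalling, was at 187 CPM against 111 (0.70), Pdx1 at 228 against 157 (0.51) and Sox9, a factor of progenitor maintenance, at 684 against 486 (0.48). Mnx1, needed for the dorsal bud, was at 47.0 CPM against 32.8 (0.41) and Nkx2-2, an endocrine lineage factor also present in early progenitors, at 76.0 against 55.6 (0.39). These 6 and Nkx6-1 were the members higher in each depth bin. Prox1 (0.37) and the endoderm factor Foxa2 (0.23) were higher in 2 of the 3 bins. Onecut1 (0.03) and Tead1 (-0.04) had ratios near 0. Gata6 alone was lower in each bin, at 61.0 against 91.5 CPM (-0.52). Foxa1 stayed below 50 UMIs, with 14 in the detected and 14 in the undetected cells.

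The partners with which Ptf1a binds DNA showed little difference. Rbpj was at 62.9 CPM in detected and 57.9 CPM in undetected cells (log2 ratio 0.10). The E protein genes Tcf3, Tcf4 and Tcf12 had log2 ratios of 0.06, 0.08 and 0.07. Rbpjl, the partner of the exocrine form of the complex, had 24 UMIs in the detected cells and 15 in the undetected cells, too few for a ratio, and 0 in the enhancer-deleted cells, where 3 counts would amount to 1.74 CPM.

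Genes of the tip cells that go on to form acini were scarce at this stage. Of 16 genes, 3 reached 50 UMIs, and these 3 were higher in each depth bin with a median log2 ratio of 0.76. Cpa1, carboxypeptidase A1, had UMIs per cell from 0 to 23 with a median of 2 in the detected cells and from 0 to 15 with a median of 0 in the undetected cells. Its level was 249 CPM (213 to 291) against 143 CPM (121 to 169), a log2 ratio of 0.76. Clps, the cofactor of pancreatic lipase, was at 174 against 93.2 CPM (0.84), and Nr5a2, a nuclear receptor that acts with Ptf1a in acinar genes, at 90.8 against 58.9 CPM (0.55). Leaving out the 1 cell with the most Clps UMIs took the Clps ratio to 0.31. Among the other members, Cela1 had 29 UMIs against 9, while the mature enzyme genes Prss1, Pnlip, Amy2a5, Cpb1 and Cela2a had 0 in both groups.

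A further group of genes was chosen from earlier results on these libraries for its differences between the genotypes, so its values in the enhancer-deleted cells are not independent evidence. Of its 8 members, 7 reached 50 UMIs, and these were higher in the detected cells in each depth bin, with a median log2 ratio of 0.78 and none past 2-fold. Beside Cpa1, Clps and Mnx1 these were Spon1 (194 against 92.5 CPM, 0.99), Chst2 (172 against 93.9, 0.81), Rhov (103 against 55.9, 0.78) and Nepn (1488 against 886, 0.74). Spon1 and Nepn encode extracellular matrix proteins, Chst2 a sulfotransferase and Rhov a small GTPase. Sptssb had 1 UMI against 5, and 68 UMIs (32.0 CPM) in the enhancer-deleted cells.

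**Figure D3:**
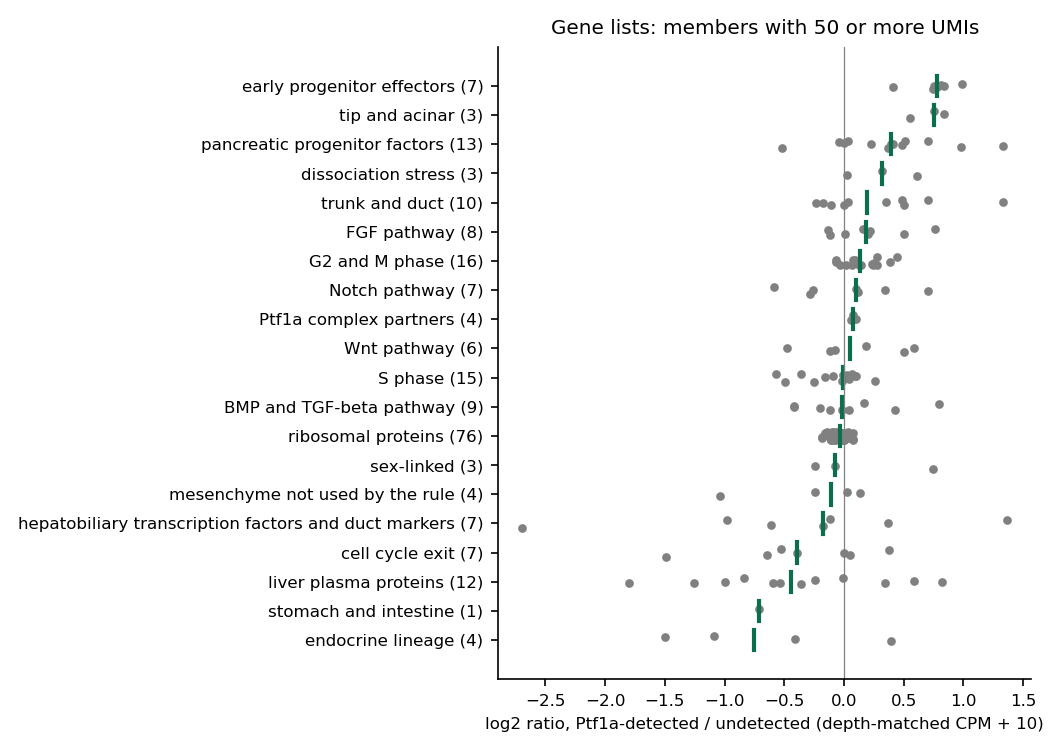
Log2 ratio of Ptf1a-detected over undetected cells (horizontal axis) for the members of each gene list with at least 50 UMIs (grey points, number in parentheses), with the list's median as a green bar. Medians run from 0.78 for the early progenitor effectors to -0.75 for the endocrine lineage list.

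Among all genes, the 12 at least 2-fold higher in the detected cells held 1 progenitor factor and otherwise genes of other roles. P2rx1, an ATP-gated ion channel, was at 83.8 CPM (63.0 to 111) against 31.9 (21.8 to 45.4), a log2 ratio of 1.16. Its UMIs per cell ranged from 0 to 6 with a median of 1 against 0 to 4 with a median of 0, and after thinning 31.9% of detected and 16.2% of undetected cells held one. Matn4, the matrix protein matrilin 4, was at 50.5 CPM (37.0 to 69.7) against 18.4 (11.0 to 29.2), a log2 ratio of 1.09. In the enhancer-deleted cells both P2rx1 and Matn4 had 0 UMIs. One or the other was detected in 58 of 74 detected cells (78.4%), 27 of 85 undetected cells (31.8%) and 0 of 116 enhancer-deleted cells, which allows a share of up to 2.59%.

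Spp1, the secreted phosphoprotein osteopontin, was at 171 CPM (142 to 207) against 60.3 (46.4 to 77.3), a log2 ratio of 1.37, with a highest cell of 29 UMIs among the detected and 8 among the undetected. In the enhancer-deleted cells Spp1 was at 192 CPM (169 to 218), close to the detected level. Tesc, a calcium-binding protein gene, was at 62.7 against 25.2 CPM (1.05) and at 8.51 CPM in the enhancer-deleted cells.

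The remaining genes were Brca1 (1.15), a DNA repair gene, Cdca5 (1.13), which encodes the cohesin regulator sororin, the predicted gene Gm27033 (1.10), the lysine methyltransferase gene Smyd2 (1.06), Vps13a (1.05) and Pctp (1.01), which encode lipid transfer proteins, and Pyy. The next genes down were Spon1, Nkx6-2 and the orphan nuclear receptor gene Nr6a1 (0.96). Without the cell with the most UMIs of each gene, the ratio was 0.98 for Tesc, 0.97 for Pctp and 0.87 for Vps13a, so these 3 fell inside 2-fold. Between 38 and 89 UMIs in the detected cells stood behind the 6 genes from Brca1 to Pctp.

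Pyy, the gut hormone peptide YY, had the highest ratio of all genes, 1.66, on uneven counts. Its level was 147 CPM (116 to 185) against 39.6 (28.0 to 54.6). One cell held 27.9% of its UMIs, 43 in that cell, and leaving it out gave a log2 ratio of 1.22. The share of cells with a Pyy UMI went the other way after thinning, 11.1% of detected and 13.5% of undetected cells. With cells of 1000 or more genes admitted, the ratio was 0.04.

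**Figure D4:**
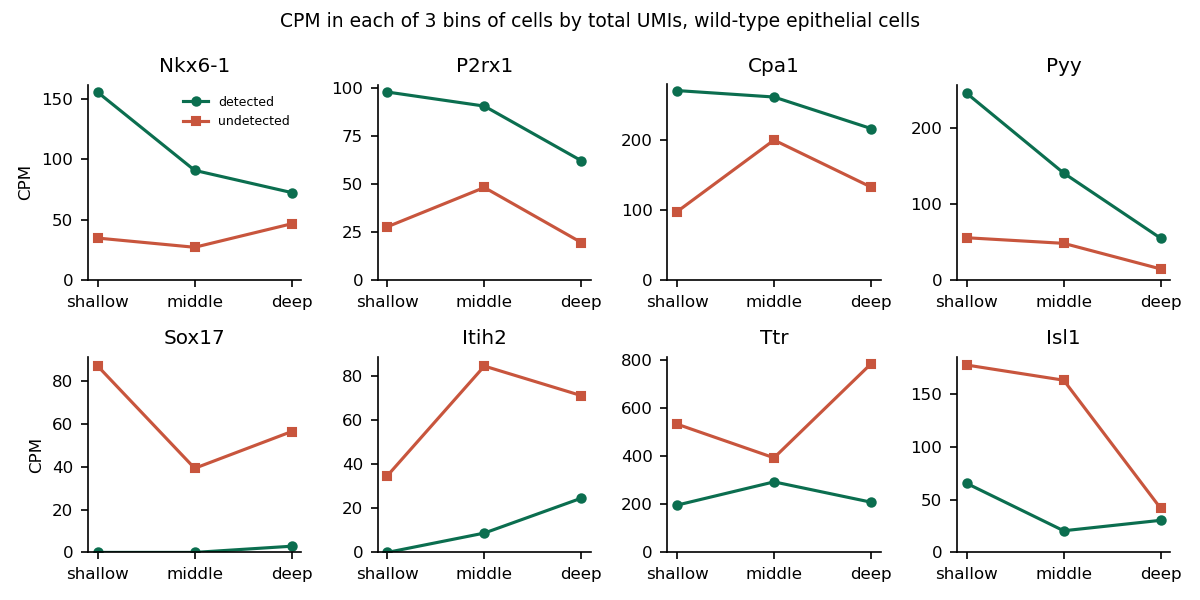
Level in CPM (vertical axes) within each of 3 bins of cells by total UMIs (horizontal axes) for 8 genes in Ptf1a-detected (green circles) and undetected (red squares) wild-type cells. Nkx6-1, P2rx1, Cpa1 and Pyy were higher in the detected cells in each bin, and Sox17, Itih2, Ttr and Isl1 lower in each.

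The 24 genes at least 2-fold lower in the detected cells had several roles, and Sox17 had the lowest ratio. Sox17, a regulator of definitive endoderm and of the biliary primordium, had 2 UMIs in the detected cells, each in a different cell, and 61 in the undetected cells, where 18 of 85 cells held between 1 and 8. Its level was 0.966 CPM (0.117 to 10.9) against 60.9 (46.5 to 78.7), a log2 ratio of -2.69, and 78.2 CPM (63.0 to 96.4) in the enhancer-deleted cells. Itih2, a plasma protein gene of the liver, was at 11.1 CPM (6.62 to 22.2) against 63.5 (49.1 to 81.1), a ratio of -1.80, and at 140 CPM in the enhancer-deleted cells. Ttr, the carrier protein transthyretin made by liver and early endocrine cells, was at 233 CPM (200 to 271) against 570 (524 to 618), a ratio of -1.26, and at 958 CPM in the enhancer-deleted cells. The median number of Ttr UMIs per cell was 2 in both groups, and the highest cell held 27 in the detected and 58 in the undetected group.

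The marker lists of the hepatobiliary region gave a mixed picture around these genes. Of 12 hepatobiliary regulators and duct markers, 7 reached 50 UMIs, with a median log2 ratio of -0.18, 1 at 2-fold lower (Sox17) and 1 at 2-fold higher (Spp1). Of 17 liver plasma protein genes, 12 reached 50 UMIs, with a median of -0.44, 2 at 2-fold lower (Itih2 and Ttr), 6 lower in each depth bin and 2 higher in each. The highest was Rbp4, the retinol carrier, at 847 CPM against 475 (0.82). The summed level of the plasma protein list was 1994 CPM in the detected cells and 2127 in the undetected cells, and 3677 in the enhancer-deleted cells. That of the hepatobiliary list was 612, 650 and 1306 CPM, and the bile acid receptor gene Nr1h4 had 0 UMIs in the 3 groups. The part of such cells in the differences between the groups was not tested.

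Endocrine genes were also among the lower ones. The gate had removed only cells with 3 or more Chga and Chgb UMIs, and the gated cells still held 25 of these UMIs, 10 in the detected and 15 in the undetected cells. Of 19 endocrine lineage genes, 4 reached 50 UMIs, with a median log2 ratio of -0.75 and 2 at 2-fold lower. Isl1, a factor of endocrine cells and of the surrounding mesenchyme, was at 38.8 CPM (24.1 to 60.6) against 127 (106 to 153), a ratio of -1.49. It was detected in 19 of 74 and 19 of 85 cells, and after thinning in 9.72% of detected and 17.6% of undetected cells. Of its UMIs, 23.4% were in 1 cell. Gcg, the glucagon gene, was at 17.4 CPM against 48.5 (-1.09), with 24.2% of its UMIs in 1 cell. Without the cell with the most UMIs of each gene, the ratio was -0.98 for Isl1 and -0.59 for Gcg, so neither stayed past 2-fold. Slc38a5, an amino acid transporter gene, was at 54.0 CPM against 234 (-1.93), with 25.6% of its UMIs in 1 cell and a ratio of -1.46 without it. The summed endocrine level was 221.8 CPM in detected, 457.9 in undetected and 2040 in enhancer-deleted cells. Neurog3, the determinant of endocrine fate, was detected in 9 of 74 and 11 of 85 cells.

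Without the 20 wild-type cells that held a Neurog3 UMI, 19 genes were 2-fold higher and 22 lower, 0.37% and 0.42% of 5177 measured. Of the original genes, 10 of the 12 higher and 14 of the 24 lower were among them. The part of endocrine cells in the other differences was not tested.

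The other genes of the 15 with the lowest ratios were Car4, a membrane carbonic anhydrase (12.2 against 55.8 CPM, -1.57), Flrt3, an adhesion receptor gene (-1.29), Igfbpl1 (-1.27), Vcan, the proteoglycan versican (-1.23), Slc2a3, a glucose transporter gene (-1.17), Igdcc3 (-1.13), Nrp2, a semaphorin receptor gene (-1.12), Mdm2, the p53 antagonist (-1.12), and Hs6st1, a heparan sulfate modifying enzyme gene (-1.10). Nrp2 had 33.3% of its UMIs in 1 cell and a ratio of -0.58 without it, and Igfbpl1 had a ratio of -0.94 without its top cell, so neither stayed past 2-fold. Cdkn1a, the cell cycle inhibitor p21, had a ratio of -1.49 with 1 depth bin the other way and 21.5% of its UMIs in 1 cell, and without that cell the ratio was -0.97. Nefm, a neurofilament gene outside the naming rule, had -1.89 with 1 bin the other way.

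The medians of the signalling, S phase and G2 and M phase lists lay within the middle 50% of all genes, and that of the cell cycle exit list below it. The median log2 ratio was 0.10 for 7 measured Notch genes, 0.18 for 8 FGF genes, -0.02 for 9 BMP and TGF-beta genes and 0.05 for 6 Wnt genes, with none of these at 2-fold in either direction. At the upper end were Hes1 for Notch, the FGF-responsive factor Etv4 at 105 against 57.9 CPM (0.76), the ligand Bmp7 at 104 against 55.6 CPM (0.79) and the Wnt inhibitor gene Sfrp5 (0.59). At the lower end were Notch2 (-0.59), Etv5 (-0.13), the inhibitor of differentiation Id2 (-0.42) and Sfrp1 (-0.47). The median was 0.00 for 15 S phase genes and 0.13 for 16 G2 and M phase genes. For 7 genes of cell cycle exit and G1 control it was -0.39, with the cyclin gene Ccnd1 highest at 862 against 662 CPM (0.38) and Cdkn1a lowest.

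Lists of other cell sources and of cell quality showed the following. Of 14 stomach and intestine genes only Barx1 reached 50 UMIs, at 67.7 against 117 CPM (-0.71). Of 17 mesenchymal genes not used by the gate 4 did, with a median of -0.11, from Fbn2 at -1.04 (-0.90 without its top cell) to Zeb2 at 0.13, and the list's summed level was 481 CPM against 548. The genes used by the gate had a median of 0.01. Ribosomal protein genes (76 measured) had a median of -0.04. Genes of the dissociation stress response had a median of 0.32 over 3 measured genes, with Jun at 303 against 195 CPM (0.61), and their part in the differences was not tested. Xist, expressed from the inactive X chromosome of female cells, was at 83.6 against 45.6 CPM (0.75) and the Y-linked Eif2s3y at 25.8 against 32.4 CPM (-0.24).

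Among the detected cells, those with more Ptf1a UMIs had higher depth-matched levels of some of the same transcripts. The 43 cells with 1 Ptf1a UMI and the 31 with 2 or more had median totals of 14041 and 14998. The shallowest bin, weighted like each other bin, held 10 and 5 of them. At matched depth Cpa1 stood at 179 CPM (145 to 224) in the cells with 1 and 353 CPM (280 to 443) in those with 2 or more. Clps was at 112 CPM (83.4 to 150) and 276 CPM (204 to 368), and Rhov at 73.2 and 143 CPM. Chst2 was at 138 and 217 CPM, Rbp4 at 624 and 1222 CPM and Nepn at 1334 and 1741 CPM. Summed without bins, Cpa1 had 129 and 142 UMIs, Clps 78 and 75, Rbp4 472 and 417 and Nepn 874 and 713. The classes held 634555 and 519233 UMIs in all, so these genes differed less before the bins were weighted equally. For Nkx6-1 the levels of 84.8 CPM (56.6 to 124) and 134 CPM (91.6 to 194) had overlapping intervals. Sox9, at 686 and 656 CPM, and Spp1, at 172 and 164 CPM, lay close together. Of the 12 genes 2-fold higher in detected cells, 8 were above in the class with 2 or more UMIs (66.7%), against 50.3% of all 5714 genes. Of the 24 lower genes 12 (50%) were below in that class, so they did not stand apart from all genes.

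The undetected cells were not uniform. They were split by Pdx1 after the values had been seen: 48 held a Pdx1 UMI (median total 12346) and 37 did not (median total 9428, with 4 of the 37 in the deepest bin). Depth and cell state therefore cannot be told apart in this split beyond what the matched bins allow. Cpa1, Chst2 or Rhov was detected in 72 of 74 Ptf1a-detected cells (97.3%), in 43 of the 48 undetected cells with Pdx1 (89.6%) and in 13 of the 37 without (35.1%). In the enhancer-deleted cells, which had a median depth near that of the detected cells, it was 15 of 116 (12.9%). Cpa1, Chst2 and Rhov come from the list chosen for genotype differences, so this share is not independent evidence. The intervals of the detected cells (90.6% to 99.7%) and of the undetected cells with Pdx1 (77.3% to 96.5%) overlapped.

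Most of the undetected cells with Sox17 had no Pdx1 UMI. It was detected in 2 of 74 detected cells, 2 of 48 undetected cells with Pdx1, 16 of 37 without (43.2%, 27.1 to 60.5) and 29 of 116 enhancer-deleted cells (17.4% to 33.9%). Its level was 6.22 CPM (2.28 to 17.4) in the undetected cells with Pdx1 and 150 CPM (112 to 199) in those without. Ttr was at 318 and 1027 CPM, Itih2 at 29.7 and 119 CPM and Car4 at 27.9 and 126 CPM. Nkx6-1 was at 52.7 CPM (35.2 to 77.0) and 9.17 CPM (2.48 to 27.2), and Sox9 at 630 and 277 CPM. Sox17 or Itih2 without any of Cpa1, Chst2 and Rhov was seen in 0 of 74 detected, 19 of 85 undetected and 66 of 116 enhancer-deleted cells. Together with any of them it was seen in 15 of 74, 12 of 85 and 7 of 116. With Cpa1, Chst2 or Rhov in 72 of 74 detected cells, the 0 was nearly fixed in advance. Both sets of genes were also chosen on these data, so the counts are a description only.

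**Figure D5:**
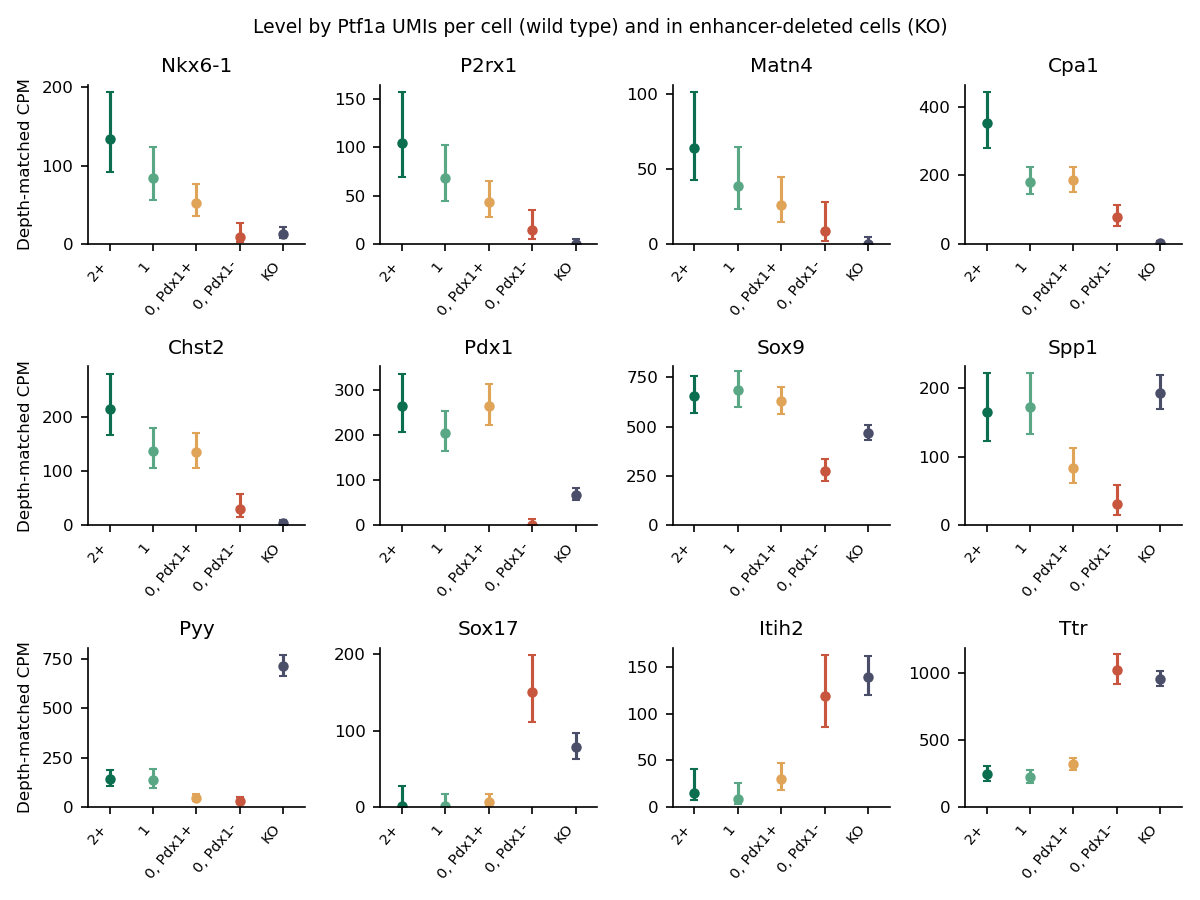
Depth-matched level in CPM (vertical axes, from 0) with 95% counting intervals for 12 genes in wild-type cells with 2 or more Ptf1a UMIs, with 1, with 0 but a Pdx1 UMI, with 0 of both, and in the enhancer-deleted cells (KO). Sox17 and Itih2 are highest in the Pdx1-negative and enhancer-deleted cells, and Pdx1 itself is 0 by definition in the Pdx1-negative class.

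When only cells with a Pdx1 UMI were compared, 67 detected against 48 undetected, 8 genes were 2-fold higher and 2 lower. These were 0.16% and 0.04% of the 4903 genes measured. Of the 12 higher genes 11 could be measured there, and these 11 kept their direction, with 3 still past 2-fold and a median log2 ratio of 0.87. Of the 24 lower genes 9 could be measured, and these 9 kept their direction, with 1 still past 2-fold and a median of -0.70. These cells are part of those whose counts picked the genes, so a kept direction was nearly fixed in advance and is no support. Nkx6-1 had a ratio of 0.82, P2rx1 0.79, Matn4 0.87 and Spp1 0.85 in these cells. Pyy (1.51), Smyd2 (1.18) and Brca1 (1.13) were the 3 past 2-fold, and Slc38a5 (-1.32) the 1 lower gene. Cpa1 was at 0.43 and Sox9 at 0.16 in these cells. The restriction also gave both groups a like Pdx1 level, with a log2 ratio of 0.02.

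The enhancer-deleted cells, which the choice of groups did not use, gave a further set of values. They come from 1 library, and no test between genotypes was possible. The median log2 ratio of undetected wild-type over enhancer-deleted cells was -0.12 over all genes, and ribosomal protein genes summed to 227546 CPM in detected, 233660 in undetected and 177200 in enhancer-deleted cells, so CPM of other genes are shifted between the libraries. Xist was at 692 CPM in the enhancer-deleted cells and Eif2s3y at 8.88 CPM, so sex-linked transcripts of the pooled embryos also differed between the libraries.

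For some genes the enhancer-deleted cells lay below both wild-type groups. Cpa1 had 2 UMIs, or 1.78 CPM (0.216 to 7.34), against 249 and 143 CPM in the wild-type groups. Chst2 was at 3.67 CPM (1.16 to 9.75), Rhov at 5.53, Mnx1 at 1.81 (0.381 to 6.94), Spon1 at 28.0 (19.8 to 39.2) and Nkx6-1 at 13.1 (7.78 to 21.6). For these 6 genes the wild-type undetected cells had a level between those of the detected and the enhancer-deleted cells. Cpa1, Chst2, Rhov, Mnx1 and Spon1 belong to the list chosen for genotype differences, and Nkx6-1 was named for its high ratio. Their order is therefore not independent evidence. Of the 12 genes higher in detected cells, the enhancer-deleted level was below the detected level in 10 and below the undetected level in 5 (41.7%), against 38.4% and 34.2% of all 5714 genes. The 12 were picked for a high detected level, so the first of these counts is largely set by that choice.

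Of the 24 lower genes, the enhancer-deleted level was above the detected level in 24 and above the undetected level in 19 (79.2%), against 61.6% and 65.8% of all 5714 genes. The 24 were picked for a low detected level, so the first of these counts is largely set by that choice. The undetected level was part of the choice too, so neither count is independent evidence. Slc38a5 was at 810 CPM (751 to 872) and Gcg at 496 CPM (453 to 542), with 1 enhancer-deleted cell holding 313 Gcg UMIs. Pyy, higher in the detected cells, was also highest in the enhancer-deleted cells, at 715 CPM (662 to 770).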

How the data were processed

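Single-cell RNA libraries of wild-type and enhancer-deleted E10.5 pancreatic tissue were used, 1 per genotype, and the open-chromatin files were not used here. The deposited matrix holds raw UMI counts per gene symbol and cell (31028 symbols), whole numbers per the file headers and values, with the library given by each barcode's prefix. The genome build is mm10, per the submitters' processing notes, and the promoter stretches come from the same build. Details of the aligner, annotation and cell filter were not given in the sources used here. With 0 mitochondrial symbols in the matrix, no mitochondrial filter was applied.

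The gated cells held 1153788 (detected), 1025428 (undetected) and 1726508 (enhancer-deleted) UMIs. Counts were summed per group within 3 bins of the wild-type cells by total UMIs, turned into CPM and averaged over the bins. Intervals at 95% are gamma intervals of Fay and Feuer for levels and Clopper-Pearson for shares, and cover counting error only. Upper limits for a count of 0 use 3 counts. Log2 ratios use 10 CPM added and genes with at least 50 UMIs. Cells are not replicates, and with 1 library per genotype no differences were tested. Named genes were Ptf1a, the 15 highest and 15 lowest ratios with 1 direction in all bins, the highest and lowest member of each list and the members of the 4 pancreatic lists. Some list members are not reported here by name. Other genes are named by choice after their values were seen. The cells, lists and rules were chosen with earlier results of these data known. Doublets were called with scrublet in scanpy 1.11.5, which marked 4 of 451 cells with 1000 or more genes, 2 of them in the gate and both Ptf1a-detected, and were kept. Promoter letters came from RefSeq. Python 3.11.15, numpy 2.4.6, scipy 1.17.1 and pandas 2.3.3 were used, and the calculation was tested on simulated counts. The simulation had larger changes, more UMIs per gene and a smaller pseudocount. Its cells varied by depth and counting error only, so it does not cover the 2-fold calls on few UMIs. Alternatives covered depth matching, the Ptf1a and cell thresholds, the cells used, the pseudocount, the gene minimum and the scaling. Leaving out the cell with the most UMIs of a gene, and the split by Pdx1, were added after the data had been seen.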

Additional observations from a re-analysis of the deposited data

How the results depend on the processing

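The counts of 12 genes 2-fold higher and 24 lower (0.21% and 0.42% of 5714) moved with the settings. No list median past 0.5 in size and no named gene past 2-fold changed sign. Thinning each cell to 6500 UMIs gave 50 higher and 39 lower (0.88% and 0.68%), of which 9 and 15 were among the original genes. Comparing 2 or more Ptf1a UMIs against 0 gave 43 and 40 (0.94% and 0.88% of 4566), with 5 and 11 of the original genes. A pseudocount of 1 CPM gave 43 and 57 (0.75% and 0.998%), and a pseudocount of 50 CPM gave 2 and 4 (0.035% and 0.07%). A minimum of 20 UMIs per gene gave 22 and 46 (0.25% and 0.53% of 8698). A minimum of 100 gave 5 and 8 (0.15% and 0.24% of 3394). No minimum gave 27 and 54 (0.18% and 0.36% of 15091). The number of genes measured changed with this minimum, so the shares moved less than the counts. Restricting to cells with a Pdx1 UMI gave 2 lower genes (0.04% of 4903). Removing cells with a Neurog3 UMI gave 19 higher genes (0.37% of 5177). Counts stayed within 1.5 times, but not always with the same genes, under pooled CPM (10 and 18, of which 6 and 15 were among the original genes), 2 depth bins (15 and 26, of which 10 and 20), 3000 genes per cell (10 and 22, of which 7 and 17), 1000 genes per cell (10 and 25, of which 2 and 15), 6 epithelial UMIs (14 and 24, of which 7 and 18), removal of called doublets (13 and 25, of which 12 and 22) and median-of-ratios scaling (12 and 26, of which 12 and 24). These settings measured between 5444 and 5991 genes, with 0.17% to 0.26% higher and 0.32% to 0.46% lower. No paired analysis was possible because each genotype had 1 RNA library and the groups are cells of 1 library. Most genes near 2-fold rest on fewer than 100 UMIs.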

Other observations

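Some genes outside the naming rule, picked after their values were seen, followed the same division. Jag1, a Notch ligand, had 33 UMIs in the Ptf1a-detected cells, 10 in the undetected cells and 6 in the enhancer-deleted cells (32.3, 9.13 and 3.36 CPM), but did not reach 50 UMIs in the wild-type cells. Nrarp, a Notch-responsive gene, had 20, 10 and 6 UMIs. Other Notch pathway genes below 50 UMIs went the other way, with Mfng at 3, 16 and 32 UMIs and Jag2 at 0, 5 and 5. The 7 measured Notch genes had a median log2 ratio of 0.10, so Jag1 and Nrarp do not stand for the list. Hhex, a regulator of liver and ventral pancreas, was at 44.4 CPM in detected, 97.4 CPM in undetected and 189 CPM in enhancer-deleted cells, and Afp, the fetal liver protein alpha-fetoprotein, at 136, 281 and 409 CPM. Vtn, the plasma protein vitronectin, ran the other way at 324, 213 and 105 CPM.

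The endocrine factor gene Pax6 had 1 UMI in the detected cells, 26 in the undetected cells and 56 in the enhancer-deleted cells. In the detected cells Pyy was at 38.8 CPM (24.8 to 60.5) in the 58 with a Cpa1 UMI and at 555 CPM (410 to 739) in the 16 without, a split chosen after the data had been seen. The 16 cells held 73 Pyy UMIs in 5 cells, with 43 of them in 1 cell, and 3 of the 16 were in the shallowest bin. A Pyy UMI was present in 27.6% of the 58 cells and 31.25% of the 16.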
